A study of Mus musculus with 4 samples.

Results

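Otx2, Pou3f1, Fgf5, Dnmt3b and Dnmt3a are genes whose activity marks mouse pluripotent cells that have left the naive state on the way to the primed one. They were described here through the histone marks called around them in rosette stem cells, which are pluripotent cells held between those states. The 5 members were set by name, with earlier results of these data known. Each had a fixed window on mouse build mm9: Otx2 at chr14:49260001-49310000, Pou3f1 at chr4:124320001-124350000, Fgf5 at chr5:98670001-98710000, Dnmt3b at chr2:153460001-153520000 and Dnmt3a at chr12:3800001-3920000. Every region of the deposited lists that overlapped a window by at least 1 bp was taken, 39 of 76945 regions in all. Cells of 2 embryonic stem cell lines, CGR8 (strain 129/Ola) and R1 (strain 129), had been kept for 8 days on gelatin and serum-coated plates. The N2B27 medium held LIF, 2 µM IWP2, an inhibitor of WNT secretion, and 1 µM PD325901, a MEK inhibitor, for both lines alike. H3K4me3 and H3K27me3 were mapped by chromatin immunoprecipitation and sequencing, with 1 library for each line and mark. No difference between the lines therefore has a replicate check, no test was run, and means ± SD are over n = 2 lines. RNA and the published naive and primed profiles named by the series were not analysed here, so the activity of the genes and a comparison with those states are not given.

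H3K4me3 is placed by SET1 and MLL complexes at promoters of active genes and at many CpG-rich promoters of silent ones. H3K27me3 is placed by Polycomb repressive complex 2 and is found over silent developmental genes. Stretches that carry both are called bivalent and are common at developmental genes of pluripotent cells. OTX2 is a homeobox transcription factor that drives exit from the naive state, and POU3F1 (OCT6) is a POU transcription factor of the epiblast and of neural cells. FGF5 is a secreted ligand of the epiblast. DNMT3A and DNMT3B are the enzymes that methylate DNA de novo, and their levels rise as the naive state is left.

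The 250 bases before the annotated starts of these genes are shown because CpG-rich promoters can carry H3K4me3 even when silent. They come from RefSeq on GRCm38.p6, matched by symbol for 4 of the 5 members, and read 5′ to 3′ on the strand of the gene. Capitals mark CG dinucleotides. Positions were not converted to mm9, so a sequence is not placed within a called region.
Otx2, start 1 of 4, chr14:48667645-48667894, minus strand: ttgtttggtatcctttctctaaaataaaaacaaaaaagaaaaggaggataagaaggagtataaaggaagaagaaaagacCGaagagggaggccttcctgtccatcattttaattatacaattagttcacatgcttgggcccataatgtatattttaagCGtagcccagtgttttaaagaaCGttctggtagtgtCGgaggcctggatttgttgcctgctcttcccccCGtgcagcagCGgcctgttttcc
Fgf5, chr5:98253934-98254183, plus strand: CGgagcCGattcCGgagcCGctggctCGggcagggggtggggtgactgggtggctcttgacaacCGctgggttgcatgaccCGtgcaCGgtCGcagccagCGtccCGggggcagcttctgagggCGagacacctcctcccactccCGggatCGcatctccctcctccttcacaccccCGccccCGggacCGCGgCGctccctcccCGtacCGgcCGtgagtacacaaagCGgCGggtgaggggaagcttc
Dnmt3b, chr2:153649199-153649448, plus strand: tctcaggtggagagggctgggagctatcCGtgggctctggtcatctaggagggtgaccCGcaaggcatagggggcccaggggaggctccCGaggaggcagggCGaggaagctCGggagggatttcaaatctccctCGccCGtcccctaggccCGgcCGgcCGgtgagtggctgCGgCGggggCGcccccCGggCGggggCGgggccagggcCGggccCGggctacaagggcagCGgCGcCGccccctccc
Dnmt3a, start 1 of 3, chr12:3806730-3806979, plus strand: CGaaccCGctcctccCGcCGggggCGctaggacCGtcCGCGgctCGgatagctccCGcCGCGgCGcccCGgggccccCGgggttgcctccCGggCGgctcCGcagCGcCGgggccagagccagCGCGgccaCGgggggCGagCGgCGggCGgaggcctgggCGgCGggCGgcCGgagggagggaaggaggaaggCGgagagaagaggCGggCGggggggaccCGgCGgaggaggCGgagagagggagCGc
Dnmt3a, start 3 of 3, chr12:3891494-3891743, plus strand: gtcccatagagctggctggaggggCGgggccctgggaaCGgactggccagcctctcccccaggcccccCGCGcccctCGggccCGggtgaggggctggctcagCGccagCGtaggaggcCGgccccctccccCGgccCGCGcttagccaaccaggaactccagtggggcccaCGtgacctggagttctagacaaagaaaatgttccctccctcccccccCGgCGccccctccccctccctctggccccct

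The members differed widely in CG content. The median over 32851 RefSeq promoters was 6 CG dinucleotides in these 250 bases. The first Dnmt3a start had 38 CG (percentile 98.4 of all promoters). Dnmt3a start 2, not printed above, had 40 (percentile 98.9), and its 250 bases overlap those of start 1 in part. Fgf5 had 24 (percentile 89.3), Dnmt3b had 21 (percentile 85.2) and Dnmt3a start 3 had 15 (percentile 74.6). The first Otx2 start had 6, the median, and its other 3 starts had 8, 14 and 9. GC content ran from 42.0% at the first Otx2 start to 82.4% at the first Dnmt3a start, against a median of 52.4%. The GC box GGGCGG was searched on both strands and is held by 32.7% of all promoters. It occurred 5 times at the first Dnmt3a start, 4 times at Dnmt3a start 2 and 3 times at Dnmt3b. Fgf5 and Dnmt3a start 3 held it 1 time each, and none of the 4 Otx2 starts did. TATAAA, held by 12.4% of promoters, was found at the first Otx2 start and at none of the other starts printed above.

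All 5 windows held H3K4me3 and H3K27me3 in both lines, and in all 5 the marks overlapped. The H3K4me3 lists gave 12 member regions in CGR8 and 14 in R1, and the H3K27me3 lists gave 7 and 6. H3K27me3 of the same line was met by 8 of the 12 H3K4me3 regions in CGR8, where 28.2% of the whole list met it, and by 9 of the 14 in R1, where 29.1% did. H3K4me3 was met by 6 of the 7 H3K27me3 regions in CGR8 (whole list 41.3%) and by 5 of the 6 in R1 (whole list 48.8%). Regions of 1 window share a locus, and a window draws in regions near a gene while the background covers the whole genome, so these counts are descriptions. In bulk chromatin, marks of different cells or alleles cannot be told from marks on 1 nucleosome.

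In 4 members an H3K4me3 region that scored high in its list met H3K27me3. Otx2, Pou3f1, Dnmt3b and Dnmt3a each had 1 H3K4me3 region in the top 10% of its list by score, in each line. All 4 of these overlapped H3K27me3 in CGR8 and all 4 in R1. Among all H3K4me3 regions of the top 10%, 9.75% did so in CGR8 and 12.1% in R1. The members were chosen with earlier results of these data known, and the background was not matched for width, so nothing is read from this contrast. An overlap of 1 bp was enough, and at Dnmt3b in CGR8 it was 0.4 kb. Fgf5 had no H3K4me3 region in the top 10%, and its H3K4me3 lay wholly inside H3K27me3. By score per kb only the Dnmt3a region stayed in the top 10%, at percentile 99.2 in CGR8 and 98.4 in R1. By that measure Dnmt3b stood at 83.4 and 84.8, Pou3f1 at 74.9 and 80.5, and Otx2 at 57.0 and 62.6, the last close to Fgf5 at 54.2 and 55.6.

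**Figure D1:**
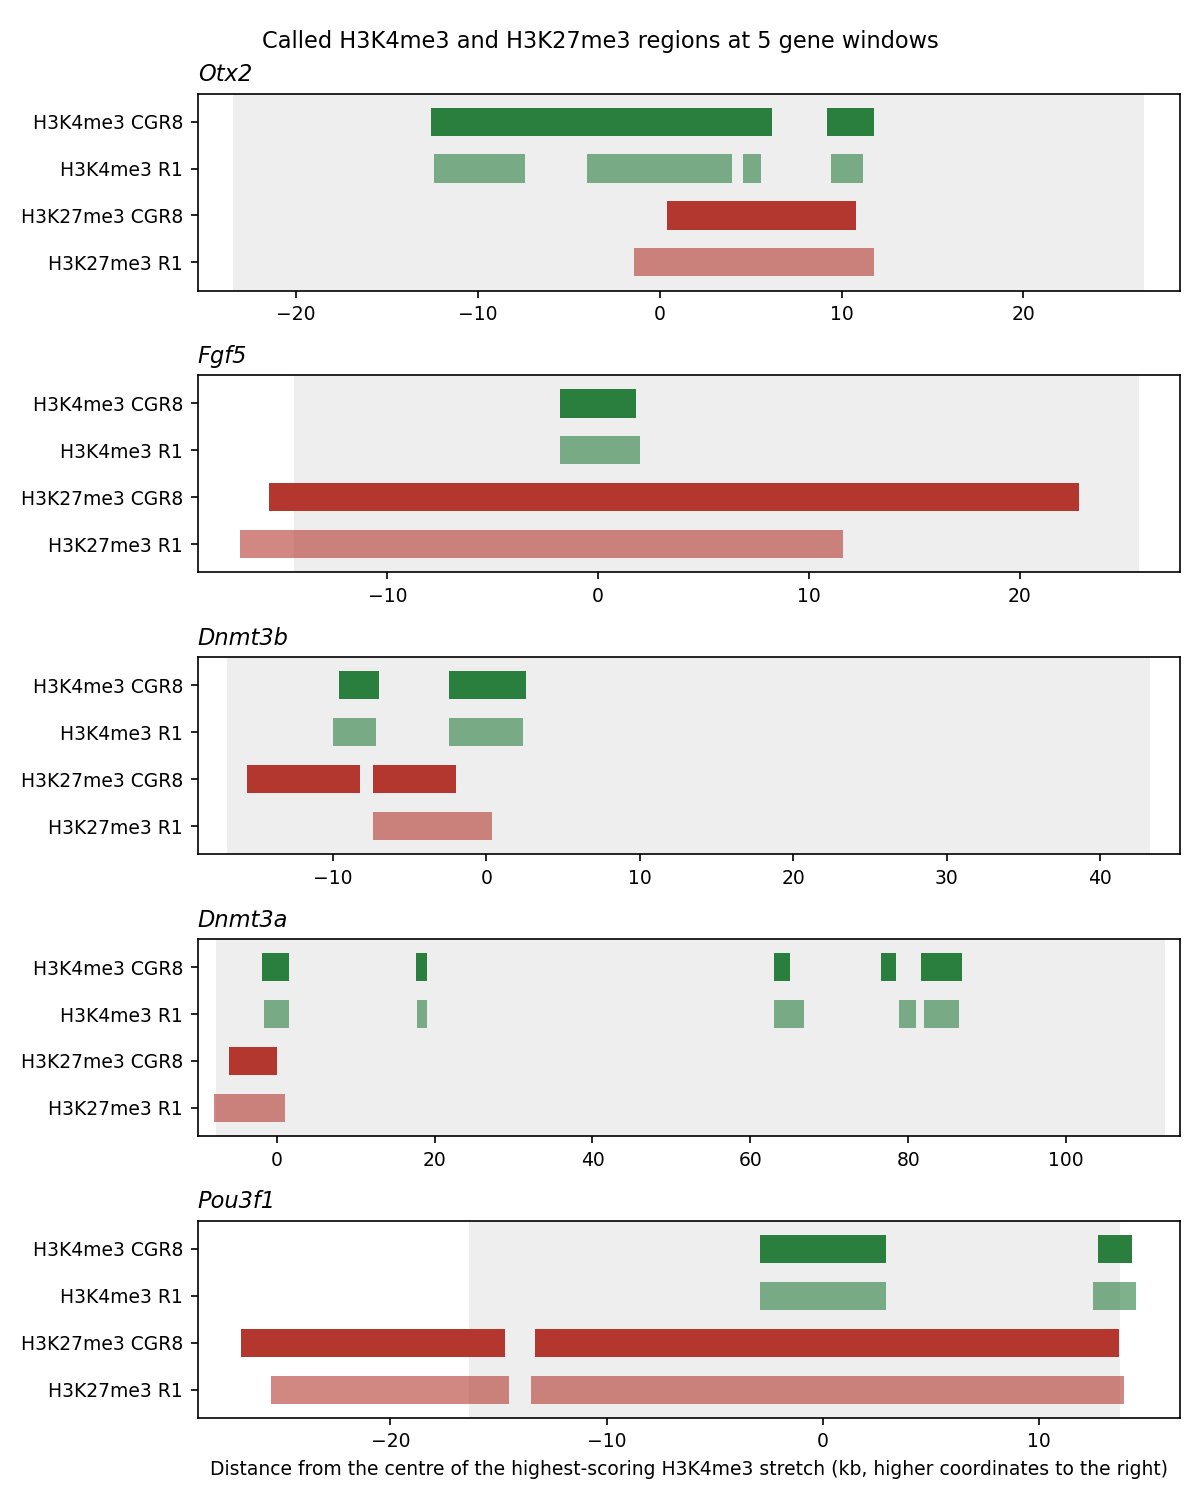
Called regions of H3K4me3 (green) and H3K27me3 (red) in CGR8 (dark) and R1 (light) at the 5 windows (grey), plotted as distance in kb from the middle of the stretch shared by the highest-scoring H3K4me3 regions of both lines. Each panel has its own scale. H3K27me3 spans the H3K4me3 region on both sides at Fgf5 and Pou3f1, and meets it on 1 side at Otx2, Dnmt3b and Dnmt3a.

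The members were then ordered by the score of their highest region of each mark. The score is the authors' deposited value, used as a percentile within its own list (the percent of regions that score as high or lower). For H3K27me3 the mean percentile was 97.1 ± 0.841 at Pou3f1, 96.4 ± 0.971 at Fgf5, 86.1 ± 6.33 at Otx2, 63.7 ± 6.82 at Dnmt3b and 52.7 ± 34.2 at Dnmt3a (SD, n = 2 lines). Pou3f1 stood slightly above Fgf5 in each line, at 97.7 against 97.1 in CGR8 and 96.5 against 95.7 in R1. Otx2 stood below these genes and above Dnmt3b and Dnmt3a in both lines. Dnmt3b stood above Dnmt3a in CGR8 (68.5 against 28.5) and below it in R1 (58.9 against 76.9). The Dnmt3b values of the 2 lines come from different regions that do not overlap, so their SD is not the spread of 1 region. The CGR8 region that overlaps the R1 region stood at percentile 57.3, also above Dnmt3a. By score per kb this order changed: Otx2 (79.0 in CGR8 and 84.3 in R1) stood above Fgf5 (73.7 and 70.9) in both lines, and above Pou3f1 (91.0 and 79.0) in R1. For H3K4me3 the mean percentile was 96.8 ± 1.09 at Dnmt3a, 96.3 ± 3.62 at Otx2, 94.7 ± 2.13 at Pou3f1 and 94.7 ± 0.568 at Dnmt3b, and the values of the 2 lines overlapped between neighbours in this order. Fgf5 stood lower, at 66.5 ± 2.87. By score, Otx2, Dnmt3b and Dnmt3a thus ranked higher for H3K4me3 than for H3K27me3 in both lines. Fgf5 ranked higher for H3K27me3, and Pou3f1 was high in both. By score per kb Otx2 instead ranked higher for H3K27me3, at 79.0 against 57.0 in CGR8 and 84.3 against 62.6 in R1. Dnmt3b and Dnmt3a ranked higher for H3K4me3 by that measure too.

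**Figure D2:**
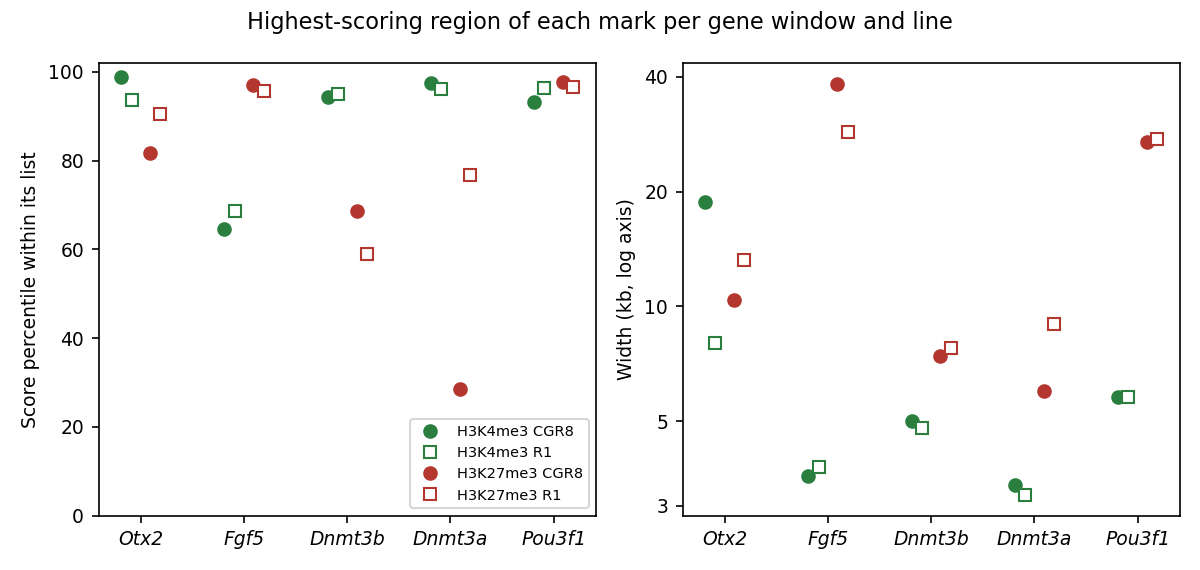
Score percentile within its list (left) and width in kb on a log axis (right) of the highest-scoring H3K4me3 (green) and H3K27me3 (red) region of each window, in CGR8 (filled circles) and R1 (open squares). Each point is 1 region of 1 library. At Dnmt3b the H3K27me3 points of CGR8 and R1 are different regions that do not overlap. The lines lie farthest apart for the score of H3K27me3 at Dnmt3a, at percentile 28.5 in CGR8 and 76.9 in R1, and for the width of H3K4me3 at Otx2, at 18.8 kb and 8.0 kb.

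Otx2 carried the broadest H3K4me3 of the members. In CGR8 a single region ran from 49270801 to 49289600 on chromosome 14, 18.8 kb wide, with a score of 4729. Only 2 of the 25241 H3K4me3 regions of that list were wider, and it ranked 284 by score. In R1 the same stretch was called as 3 regions, from 49271001 to 49276000 (5.0 kb, score 333), from 49279401 to 49287400 (8.0 kb, score 2728) and from 49288001 to 49289000 (1.0 kb, score 140). The region of 8.0 kb ranked 161 of 24618 by width and 1539 by score. The gaps between the R1 regions were 3.4 kb and 0.6 kb, and every base called there in R1 was also called in CGR8. Broad H3K4me3 at Otx2 was therefore found in both lines, while its continuity was found in CGR8 alone. Per kb the score was ordinary, at percentile 57.0 in CGR8 and 62.6 in R1, so the high score of these regions went with their width.

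H3K27me3 at Otx2 lay over the upper part of this H3K4me3. It ran from 49283801 to 49294200 in CGR8 (10.4 kb, score 342, rank 2677 of 14575) and from 49282001 to 49295200 in R1 (13.2 kb, score 553, rank 1178 of 12511). All of the CGR8 stretch was also called in R1. H3K27me3 covered 5.8 kb of the CGR8 region of 18.8 kb (30.9%) and 5.4 kb of the R1 region of 8.0 kb (67.5%). Over the 8.0 kb that both lines share, it covered 45.0% in CGR8 and 67.5% in R1. A further H3K4me3 region lay from 49292601 to 49295200 in CGR8 (2.6 kb, score 727) and from 49292801 to 49294600 in R1 (1.8 kb, score 461), within H3K27me3 over 61.5% and 100% of its width. In the RefSeq gene order the next gene after Otx2 is the non-coding Otx2os1, and this region was not assigned to either gene.

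Pou3f1 had high-ranking regions of both marks, nearly identical in the 2 lines. H3K4me3 ran from 124333401 to 124339200 on chromosome 4 in both (5.8 kb), with a score of 2771 (rank 1706) in CGR8 and 3250 (rank 923) in R1. H3K27me3 ran from 124323001 to 124350000 in CGR8 (27 kb, score 1302, rank 332) and from 124322801 to 124350200 in R1 (27.4 kb, score 997, rank 434). The H3K4me3 region lay wholly inside H3K27me3, which reached 10.4 kb and 10.6 kb beyond its lower edge and 10.8 kb and 11.0 kb beyond its upper edge, in CGR8 and R1. This called region was thus nearly symmetric about the H3K4me3 region. H3K27me3 of the wider locus was not, as it covered 48.0% (CGR8) and 35.4% (R1) of the 100 kb below the window. Of the 100 kb above the window it covered 0% and 0.2%. Of all H3K4me3 regions, 22.5% in CGR8 and 22.9% in R1 lay wholly inside 1 H3K27me3 region.

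Smaller regions bordered the Pou3f1 domain. A weak H3K4me3 region sat at its upper end, from 124349001 to 124350600 in CGR8 (score 116) and from 124348801 to 124350800 in R1 (score 107). A further H3K27me3 region, free of H3K4me3, ended 1.4 kb before the domain in CGR8 and 1.0 kb before it in R1. That region was 12.2 kb wide in CGR8 (score 241) and 11.0 kb in R1 (score 131) and lay mostly outside the window.

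Fgf5 had the widest single H3K27me3 region of the members and, by score, the lowest-ranking main H3K4me3 region. At Pou3f1 H3K27me3 was called as 2 regions with a gap of 1.4 kb in CGR8 and 1.0 kb in R1, so this order of widths depends on where calls were split. H3K27me3 ran from 98668801 to 98707200 on chromosome 5 in CGR8 (38.4 kb, score 1125, rank 423) and from 98667401 to 98696000 in R1 (28.6 kb, score 869, rank 535). By width these regions ranked 96 of 14575 and 141 of 12511. The only H3K4me3 region of the window ran from 98682601 to 98686200 in CGR8 (3.6 kb, score 794, rank 8962 of 25241) and from 98682601 to 98686400 in R1 (3.8 kb, score 989, rank 7743 of 24618). It lay wholly inside H3K27me3 in both lines. H3K27me3 reached 13.8 kb before it in CGR8 and 15.2 kb in R1, in the direction of the gene, and 21.0 kb and 9.6 kb after it. The lines therefore differed mainly at the far end, where CGR8 held 11.2 kb of the window that R1 did not. H3K4me3 made up 9.38% of the H3K27me3 region in CGR8 and 13.3% in R1.

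At Dnmt3b a strong H3K4me3 region met a modest H3K27me3 region at its 5′ edge. H3K4me3 ran from 153474401 to 153479400 on chromosome 2 in CGR8 (5.0 kb, score 2990, rank 1435) and from 153474401 to 153479200 in R1 (4.8 kb, score 2988, rank 1202). H3K27me3 began at 153469401 in both lines and ended at 153474800 in CGR8 (5.4 kb, score 152) and at 153477200 in R1 (7.8 kb, score 144). The overlap was 0.4 kb in CGR8, 8.0% of the H3K4me3 region, and 2.8 kb in R1, 58.3% of it. In CGR8 the marks thus little more than touched at this main H3K4me3 region. The overlap of 0.4 kb spans 2 steps of the 200 bp grid on which regions were called.

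The lines differed further out on that side of Dnmt3b. A second H3K27me3 region of CGR8, from 153461201 to 153468600 (7.4 kb, score 208, percentile 68.5), had no partner in R1 and was the higher-scoring one of the window. Of all H3K27me3 regions, 67.1% in CGR8 and 81.1% in R1 had a partner in the other line. A weak H3K4me3 region was called nearby in both lines, from 153467201 to 153469800 in CGR8 (score 50.03) and from 153466801 to 153469600 in R1 (score 63.3). Its percentiles were 9.69 and 17.5, close to the lowest scores of the lists (38.5 and 37.3). H3K27me3 overlapped 69.2% of this weak region in CGR8 and 7.14% in R1. With it included, both marks together covered 2.2 kb of the window in CGR8 and 3.0 kb in R1. No H3K27me3 was called on the 3′ side of the main H3K4me3 region within the window, in either line.

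Dnmt3a is transcribed from separate starts, and its window held 5 H3K4me3 regions in each line. The highest ran from 3805801 to 3809200 on chromosome 12 in CGR8 (3.4 kb, score 3936, rank 608) and from 3806001 to 3809200 in R1 (3.2 kb, score 3203, rank 973). It was the most concentrated of the members' main regions, with a score per kb at percentile 99.2 in CGR8 and 98.4 in R1. The next highest ran from 3889201 to 3894400 in CGR8 (5.2 kb, score 1094) and from 3889601 to 3894000 in R1 (4.4 kb, score 825). The first outscored it 3.599 times in CGR8 and 3.88 times in R1. The centres of these 2 regions were 84.3 kb and 84.2 kb apart on mm9, while RefSeq starts 1 and 3 printed above are 84.764 kb apart on GRCm38.p6. The RefSeq table also places the non-coding genes Dnmt3aos and Gm31623 over Dnmt3a, so the regions were not assigned to single transcripts.

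In the Dnmt3a window H3K27me3 was called over the first H3K4me3 region alone. H3K27me3 ran from 3801601 to 3807600 in CGR8 (6.0 kb, score 94.98, rank 10424 of 14575) and from 3799601 to 3808600 in R1 (9.0 kb, score 269, rank 2895 of 12511). It covered 1.8 kb (52.9%) of the first H3K4me3 region in CGR8 and 2.6 kb (81.2%) in R1. The other 4 H3K4me3 regions of each line, the second-highest included, overlapped no H3K27me3 region. They held a region of 2.0 kb (CGR8) and 3.8 kb (R1) beginning at 3870601, with scores of 191 and 192, and one ending at 3826600, with scores of 115 and 72.7. The weakest, from 3884201 to 3886000 in CGR8 (score 43.7) and from 3886401 to 3888600 in R1 (score 44.5), had no partner in the other line. The H3K27me3 region of CGR8 was among the weaker ones of its list, at percentile 28.5, and was not kept when the list was limited to its higher-scoring 50%.

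The side on which H3K27me3 lay was set beside the direction of the genes, a comparison chosen after the values were seen. Relative to the main H3K4me3 region, the H3K27me3 region that met it extended only to the 5′ side at Otx2 (4.6 kb in CGR8 and 7.8 kb in R1), Dnmt3b (5.0 kb in each) and Dnmt3a (4.2 kb and 6.4 kb). It did not pass the 3′ edge at these 3 genes in either line. Otx2 is annotated on the minus strand and Dnmt3b and Dnmt3a on the plus strand, so the side is the same by annotated strand but not by coordinate. The main H3K4me3 regions were not tied to transcription starts, so the side relative to a start is not given. At Fgf5, on the plus strand, and at Pou3f1 it extended to both sides. In each of the former 3 genes H3K27me3 covered more of the main H3K4me3 region in R1 than in CGR8, by 36.6, 50.3 and 28.3 percentage points. Over the stretch shared at Otx2 the values were closer, 67.5% in R1 and 45.0% in CGR8. The H3K27me3 list of R1 was the shorter one as a whole (99.4 Mb against 134 Mb). The H3K27me3 lists had different lowest scores, 70.6 in CGR8 and 59.4 in R1, and the part of this limit in where regions end was not tested.

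**Figure D3:**
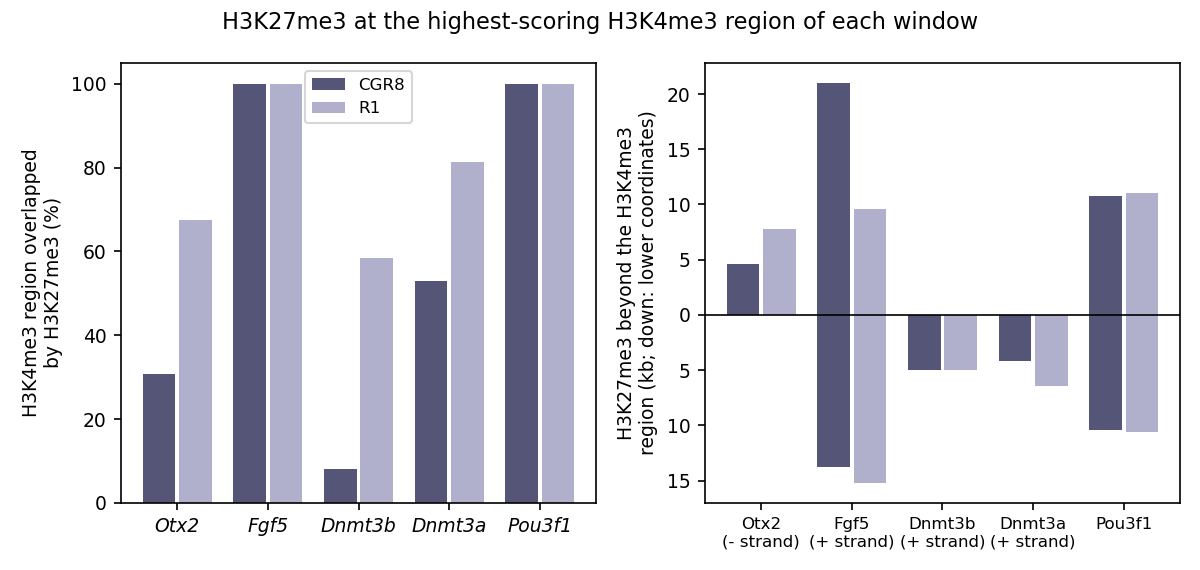
Left, percent of the highest-scoring H3K4me3 region of each window overlapped by H3K27me3 in CGR8 (dark bars) and R1 (light bars), 1 library each. Right, length in kb by which H3K27me3 reached beyond that region toward higher (up) and lower (down) coordinates, with the annotated strand where known. Fgf5 and Pou3f1 reach 100% with H3K27me3 on both sides, and the other genes stay at 81.2% or less with H3K27me3 on 1 side.

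The windows were also set beside 100 kb on either side of each. H3K27me3 covered 95.3% of the Pou3f1 window in CGR8 and 96.7% in R1. It covered 48.0% (CGR8) and 35.4% (R1) of the lower flank. On the upper flank it covered 0% and 0.2%, so the Polycomb domain of Pou3f1 ended at the window's upper end. At Fgf5 it covered 93.0% and 65.0% of the window and between 13.0% and 36.4% of the flanks. At Dnmt3a it covered 5.0% of the window in CGR8, less than either flank (8.6% and 5.6%), and 7.17% in R1, more than either flank (5.2% and 4.6%). At Otx2 H3K4me3 covered 42.8% of the window in CGR8 and 31.6% in R1, against 1.4% of the lower flank in each line and 12.6% and 13.6% of the upper one. Windows were drawn around the genes and differ in length (30 kb to 120 kb), so cover is compared only between the lines and with a window's own flanks.

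**Figure D4:**
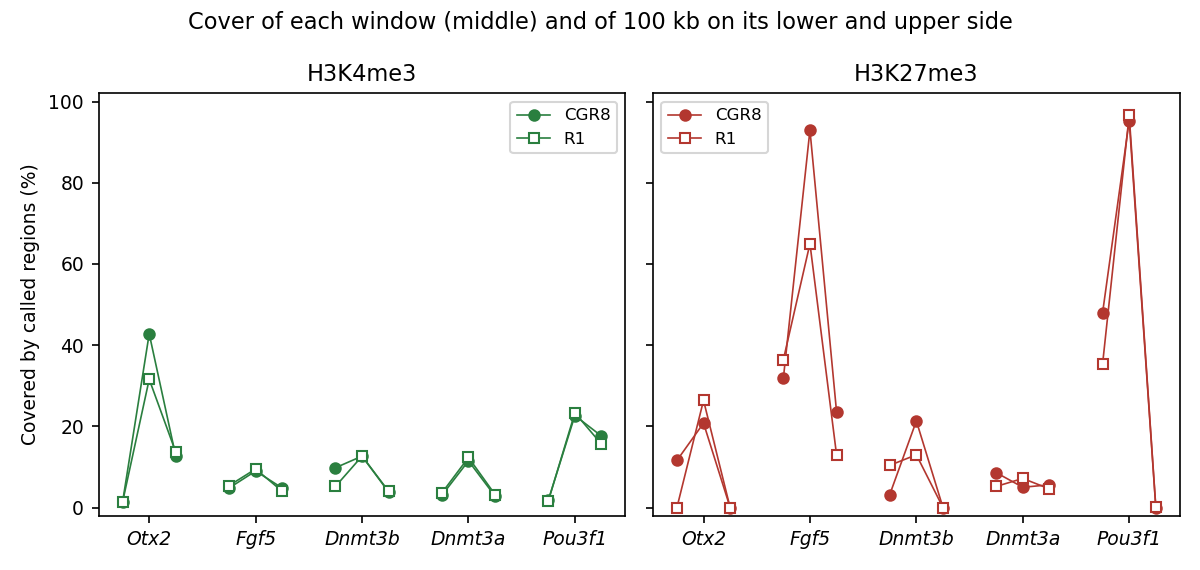
Percent of bases covered by called H3K4me3 (left) and H3K27me3 (right) regions in each window (middle point) and in 100 kb on its lower-coordinate (left point) and upper-coordinate (right point) side, in CGR8 (filled circles) and R1 (open squares). H3K4me3 cover is higher in the window than in either flank for all 5 genes in both lines, and so is H3K27me3 cover except at Dnmt3a in CGR8 (5.0% against 8.6% and 5.6%).

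The agreement of the lines was then measured by partners and by shared bases. A partner in the other line was found for 11 of the 12 H3K4me3 regions in CGR8 (whole list 89.8%) and for 13 of the 14 in R1 (whole list 92.6%), shares close to the background. It was found for 6 of the 7 H3K27me3 regions in CGR8 (whole list 67.1%) and for all 6 in R1 (whole list 81.1%), and with so few regions nothing is read from these counts. Over the 5 windows, 76.2% of the bases covered by H3K4me3 in either line were covered in both, against 74.1% over the whole lists, which is again close. It was 97.1% at Pou3f1, 94.7% at Fgf5, 90% at Dnmt3b, 73.8% at Otx2 and 60.7% at Dnmt3a. For H3K27me3 this share was 74.0%, against 49.3% over the whole lists. It was 98.6% at Pou3f1, 78.8% at Otx2, 69.9% at Fgf5, 69.8% at Dnmt3a and 35.5% at Dnmt3b, the last below the whole lists. Pou3f1 and Fgf5 held 28.6 kb and 26.0 kb of the 76.4 kb shared, and the whole lists were not matched for width or score. Nothing is therefore read from the pooled share. Dnmt3b thus agreed least between the lines for H3K27me3 and Dnmt3a for H3K4me3, while Pou3f1 agreed most for both marks.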

How the data were processed

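Per the labels' protocols, formaldehyde-fixed chromatin was sonicated, precipitated with an antibody to H3K27me3 or H3K4me3 and sequenced, 1 library per line and mark. The authors deposited 1 region list per library, with a score that has no stated unit or formula. Bowtie2 2.0.2, SICER 1.1 and bedtools 2.20.1 and the build mm9 are named, per the submitters' processing notes. Settings, any control library and read totals were not given in the sources used here. Absence from a list therefore means no call at an unstated depth. The lists held 25241 (CGR8) and 24618 (R1) H3K4me3 regions and 14575 and 12511 H3K27me3 regions.

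Starts and ends, deposited on a grid of 200 bp, were counted from 1. Scores were ranked only within a list. The members and windows were chosen with earlier results of these data known, and all 5 members are named with every region of their windows. Other genes of the rosette and primed states were not analysed here, since the reference tables are on another build, GRCm38.p6, and no position was carried over to mm9. Those tables gave gene order, strand and promoter sequence. Overlaps were tested on simulated regions first. Computations used Python 3.11.15, numpy 2.4.6, pandas 2.3.3, scipy 1.17.1 and matplotlib 3.10.9.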

Additional observations from a re-analysis of the deposited data

How the results depend on the processing

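All 5 members kept both marks, overlapping in both lines, with 50% or more of a region required inside the window. Windows widened by 10 kb on each side, merging of regions less than 1000 bp apart and leaving out either line cannot lower that count, so they say nothing about its stability. In the higher-scoring 50% of each list all 5 kept H3K4me3 and 4 kept H3K27me3 and the overlap in both lines, Dnmt3a losing its CGR8 region. That setting also lowered the share of bases covered in both lines to 70.9% for H3K4me3 and 68.2% for H3K27me3, and the cause was not tested. Ranked by score per kb instead of score, 8 of 10 main H3K4me3 regions and 8 of 10 main H3K27me3 regions stood lower in their lists. By that measure 3 of the 4 members in the top 10% for H3K4me3 left it in both lines, and for H3K27me3 Otx2 moved above Fgf5. Ranked by width, 7 of 10 main H3K4me3 regions and 6 of 10 main H3K27me3 regions stood higher. Dnmt3a then left the top 10% for H3K4me3, at percentile 84.8 in CGR8 and 83.6 in R1. Otx2, Pou3f1 and Dnmt3b stayed in it. The overlap of the main H3K4me3 regions with H3K27me3 was also computed after merging, on the higher-scoring 50% and on the stretch common to both lines, alternatives chosen after seeing the data. Dnmt3a in CGR8 went from 52.9% to 0% in the higher-scoring 50%. The largest other change was at Otx2 in CGR8, from 30.9% to 45.0% on the common stretch. Each value but that of Dnmt3a stayed within 1 SD over the lines, but that SD is the line difference itself and says nothing about stability. On the common stretch, Fgf5 and Pou3f1, wholly inside H3K27me3, and R1 at the other genes could not move. No paired analysis was possible because no result comes from a test. Read depth is not in the lists, and how far the weakest regions and the ends of regions depend on it was not tested.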
